A study of Homo sapiens with 9 samples.

Results

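DNA:RNA hybrids were mapped by DRIP-seq over 9 genes tied to neuroblastoma, ALK, LMO1, LIN28B, BARD1, HACE1, KIF1B, NBAS, DUSP12 and the non-coding gene CASC15. The genes were taken by name, each as its RefSeq GRCh38 span plus 1000 bp on each side, and they are 9 of the 19975 genes examined on chromosomes 1 to 22 and X. The cells were SH-SY5Y, an established adrenergic human neuroblastoma line that is known to carry an activating point mutation in the ALK kinase domain. They held a lentiviral short hairpin RNA, either against TDP-43 (shTDP43), the RNA-binding protein encoded by TARDBP, or a negative control (shNC). Per the labels' protocols, 2 weeks of puromycin at 2 µg/mL had selected the hairpin cells, and 1 µg/mL maintained them. Of each line there were 3 untreated libraries and 1 library made after 6 h of RNase H, the enzyme that digests the RNA strand of a hybrid. By its title, the series asks how R-loops are distributed once TDP-43 is lost, which is the comparison of the 2 lines. The labels do not say that the replicates were separately transduced lines, so p-values here measure the spread between these libraries only.

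An R-loop is a hybrid of a nascent RNA with its template DNA strand that leaves the other DNA strand unpaired, and it forms mostly over transcribed, G-rich and CpG-rich sequence behind gene starts. The antibody S9.6 binds the hybrid, so DRIP recovers the restriction fragment that carries it. ALK is a receptor tyrosine kinase of the developing sympathetic nervous system and the main gene of familial neuroblastoma. LMO1, LIN28B, BARD1, HACE1, DUSP12 and CASC15 lie at loci where common variants are associated with neuroblastoma risk, and KIF1B and NBAS were named in the disease through the loss and the co-amplification of their loci. In a bulk library, fewer cells with a hybrid and less hybrid per cell cannot be told apart.

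The untreated lists held 57277, 69744 and 70120 peaks in shTDP43 and 73456, 69542 and 70902 peaks in shNC, and their background pileups, a measure of depth, ranged from 1.05 to 1.94 in shTDP43 and from 1.62 to 2.01 in shNC. Replicate 1 of shTDP43 was the shallowest, with 91.6 Mb under peaks, while the other 5 had 125.5 to 142.0 Mb. TARDBP, the gene that the hairpin targets, was covered over 6.82, 9.87 and 10.2 kb in shTDP43 and 14.2, 10.3 and 12.7 kb in shNC. Those lengths are no check of the knockdown, since hybrid coverage measures neither transcript nor protein. Of 8 adrenergic marker genes 7 were covered in all 6 untreated libraries, TH being at 0, and their summed length was 85.6 to 88.3 kb in shTDP43 and 86.3 to 88.9 kb in shNC. The 5 mesenchymal markers summed to 20.9 to 25.3 kb in shTDP43 and 24.6 to 26.6 kb in shNC, with PRRX1 at 0. The 3 lymphoid and 3 liver markers had no peak.

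RefSeq promoter sequences (GRCh38.p14) were available for 8 of the 9 genes, as windows of 250 bases before to 50 bases after a start. Capitals mark runs of 4 or more G on the strand of the gene. The first sequence is the start of ALK, where the peaks of the 2 lines differed in width, as described below. The next ones are CASC15 and BARD1, whose starts lay under a peak in some libraries only, and NBAS, whose start lay under none.

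ALK start, chr2:29921537-29921836, minus strand: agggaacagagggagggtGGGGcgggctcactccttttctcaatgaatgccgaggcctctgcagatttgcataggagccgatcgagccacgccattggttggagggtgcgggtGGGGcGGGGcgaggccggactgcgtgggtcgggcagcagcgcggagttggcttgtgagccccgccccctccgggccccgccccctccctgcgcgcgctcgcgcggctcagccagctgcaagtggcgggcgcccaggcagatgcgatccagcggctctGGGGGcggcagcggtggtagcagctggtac
CASC15 start, chr6:21666163-21666462, plus strand: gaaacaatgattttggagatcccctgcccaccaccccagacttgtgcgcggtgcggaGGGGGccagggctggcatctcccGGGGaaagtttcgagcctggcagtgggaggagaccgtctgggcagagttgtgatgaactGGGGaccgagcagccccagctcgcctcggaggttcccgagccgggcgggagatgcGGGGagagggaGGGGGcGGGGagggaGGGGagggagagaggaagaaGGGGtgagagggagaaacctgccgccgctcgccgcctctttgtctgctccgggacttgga
BARD1 start, chr2:214809634-214809933, minus strand: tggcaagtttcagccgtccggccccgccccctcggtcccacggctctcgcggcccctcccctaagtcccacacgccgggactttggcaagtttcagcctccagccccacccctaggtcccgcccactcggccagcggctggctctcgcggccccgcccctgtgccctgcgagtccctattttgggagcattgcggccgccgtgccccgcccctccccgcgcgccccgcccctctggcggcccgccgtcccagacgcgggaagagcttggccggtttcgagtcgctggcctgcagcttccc
NBAS start, chr2:15561285-15561584, minus strand: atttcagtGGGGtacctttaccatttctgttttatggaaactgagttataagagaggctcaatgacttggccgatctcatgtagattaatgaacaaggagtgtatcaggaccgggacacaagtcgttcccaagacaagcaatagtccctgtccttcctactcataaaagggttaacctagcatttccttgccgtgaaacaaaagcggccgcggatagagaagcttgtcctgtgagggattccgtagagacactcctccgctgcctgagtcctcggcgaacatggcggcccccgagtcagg

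The ALK window was 71.0% G and C with 4 runs of GGGG, and all 300 of its bases lay under a peak in each of the 6 untreated libraries. The CASC15 window held 8 such runs at 66.7% G and C, and its covered length was 0, 115 and 300 bp in shTDP43 and 300, 300 and 142 bp in shNC. BARD1, at 73.7% G and C, held no GGGG and 13 runs of CCCC, and was covered over 0, 197 and 300 bp in shTDP43 and 300, 300 and 5 bp in shNC. The NBAS window, at 49.7% G and C, had 1 run and no peak in any of the 8 libraries. GGGG occurs in 75.1% and CCCC in 73.6% of all 35116 promoter windows of the table, whose median G and C content is 58.7%, so neither run is particular to these genes. The motif matches describe the letters in the window and nothing about where a hybrid forms.

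The covered length, meaning the bases of a gene span that lie under called peaks, differed by over 2 orders of magnitude among the 9 genes. ALK averaged 199.9 ± 42.4 kb in shTDP43 and 300.04 ± 26.0 kb in shNC (SD, n = 3 each). LMO1 averaged 28.5 ± 4.08 kb in shTDP43 and 31.4 ± 1.23 kb in shNC, and CASC15 averaged 19.7 ± 6.72 kb in shTDP43 and 22.4 ± 3.99 kb in shNC (SD, n = 3 each). KIF1B averaged 17.1 ± 3.87 kb in shTDP43 and 19.7 ± 2.76 kb in shNC (SD, n = 3 each). In shTDP43 the range of CASC15 overlapped those of LMO1 and KIF1B, and in shNC it overlapped that of KIF1B. LIN28B, HACE1, NBAS, BARD1 and DUSP12 followed with means of 1.85 to 4.22 kb in shTDP43 and 1.93 to 4.03 kb in shNC, and in shTDP43 the ranges of the last 4 overlapped. As a share of the span, LMO1 came first with 61.3% in shTDP43 and 67.6% in shNC, and ALK next with 27.4% in shTDP43 and 41.1% in shNC. DUSP12, a short gene with a peak at its start in all 6 untreated libraries and no other peak in 5 of them, had 19.5% in shTDP43 and 20.4% in shNC. NBAS, a span longer than that of ALK, came last with 0.298% in shTDP43 and 0.324% in shNC.

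**Figure D1:**
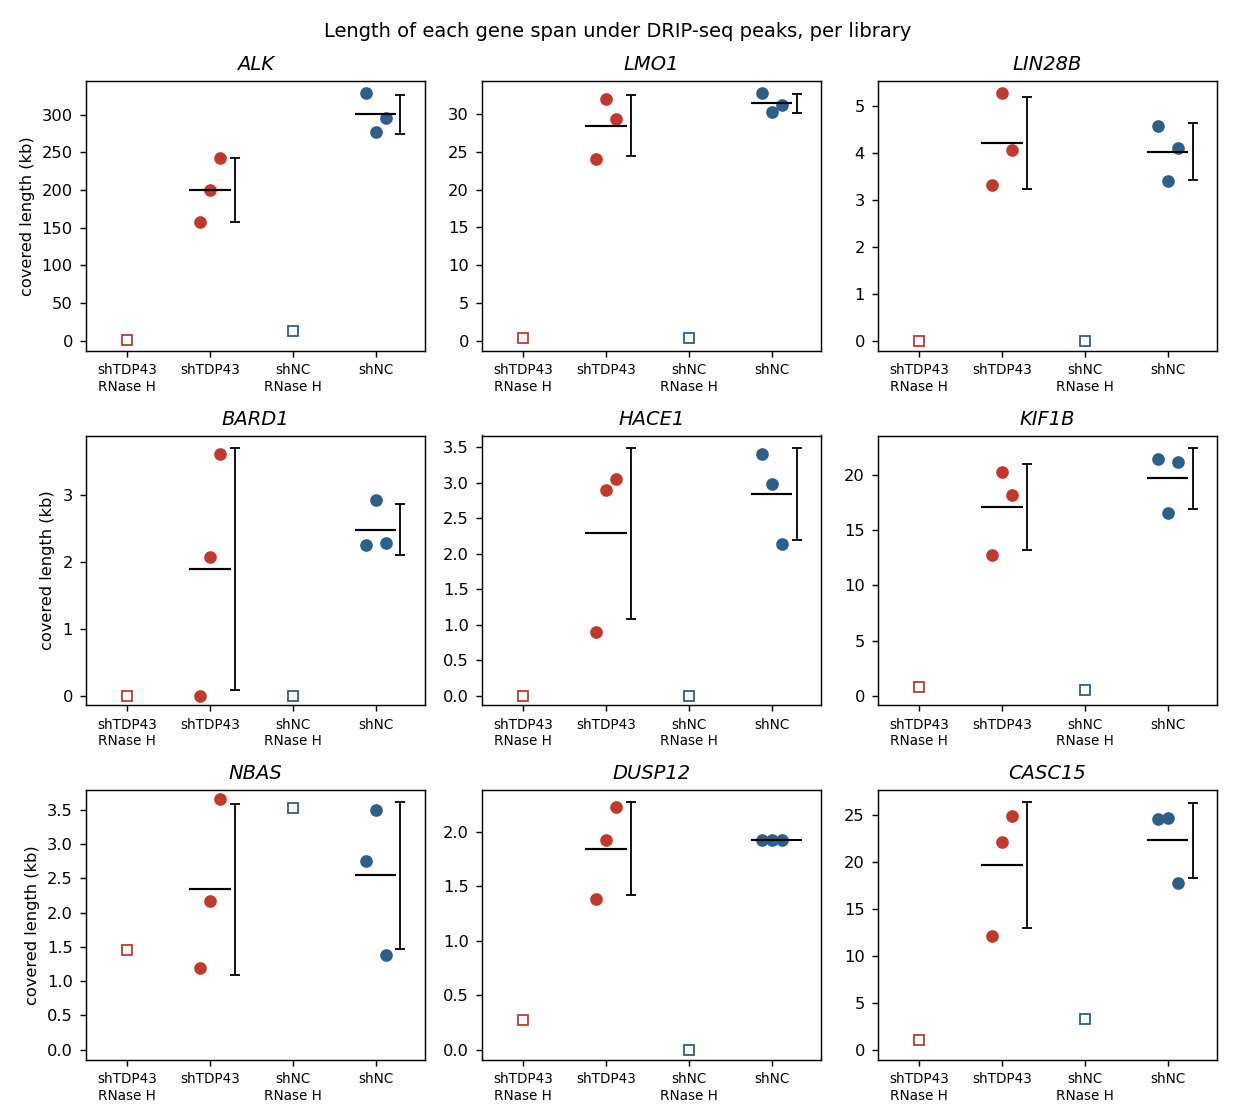
Covered length in kb (vertical axes, each from its own scale) of the 9 genes in single libraries, with filled circles for untreated libraries, open squares for RNase H libraries, and bars for the mean and SD of 3. The untreated shTDP43 circles lie below all untreated shNC circles for ALK and overlap them for the other 8 genes, and the squares reach the level of the circles for NBAS and, at 0 kb in shTDP43, for BARD1.

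ALK, at chr2:29192774-29921586 on the minus strand, was covered over 157.3, 200.4 and 242.1 kb in the 3 shTDP43 libraries, against 328.0, 276.5 and 295.5 kb in the 3 shNC libraries. The highest shTDP43 library thus lay below the lowest shNC library. In shNC no other of the 19975 genes had a longer covered length, and in shTDP43 ALK had rank 3 behind MSI2 with 200.7 kb and ZMIZ1 with 234.5 kb. By its covered share in shNC it ranked 12 of 1411 genes over 200 kb, whose median share was 0.601%. Peaks over ALK numbered 127, 136 and 157 in shTDP43 and 183, 164 and 167 in shNC, again without overlap.

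After scaling to the library totals, the covered length of ALK was 221.7, 201.5 and 238.8 kb in shTDP43, against 298.3, 275.1 and 304.1 kb in shNC, and the groups still did not overlap. The log2 change in shTDP43 was −0.41 ± 0.07 (SE), which passed the test (limma with Benjamini-Hochberg adjustment over 12811 genes, adjusted p = 0.0393). Genes called lower were 96 of the 12811, or 0.749%, and genes called higher 22, or 0.172%. Without scaling, every shTDP43 library lay below every shNC library for 14.0% of the genes tested, and with scaling for 10.2%. The sign for ALK was negative under each of the 21 alternative settings, with log2 changes from −0.84 to −0.28, and the call was kept under 10 of them. It was lost when any 1 of the shNC libraries was left out (limma, adjusted p = 0.229, 0.0941 and 0.212 without replicates 1, 2 and 3) and without the shallowest library, shTDP43 replicate 1 (log2 −0.41, limma, adjusted p = 0.0629). The 3 shTDP43 libraries had ALK lengths in the order of their background pileups of 1.05, 1.68 and 1.94, while shTDP43 replicate 3 at 1.94 had 242.1 kb of ALK and shNC replicate 3 at 1.62 had 295.5 kb. The part of depth in the ALK difference was not tested.

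**Figure D2:**
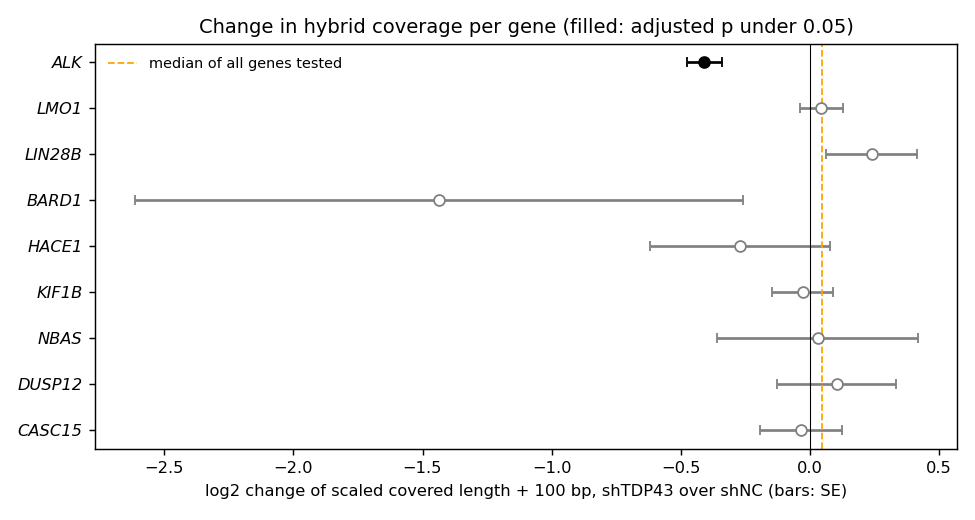
Log2 change in scaled covered length plus 100 bp, shTDP43 over shNC, for each of the 9 genes (points, bars are SE, filled where the adjusted p is under 0.05), with the median of all genes tested as a dashed line. ALK at −0.41 is the filled point, and the widest bar belongs to BARD1 at −1.44 ± 1.18.

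The ALK span was divided into 8 steps of 100 kb from the 5′ end, the last of which ends with the gene at 728.8 kb. Unscaled, the ratio of the shTDP43 mean to the shNC mean was 0.63, 0.43, 0.45, 0.59, 0.78, 0.62, 0.84 and 0.73, against 0.88 for the mean library totals, and in each of the 8 steps all shTDP43 libraries lay below all shNC libraries. After scaling to the library totals the ratios were 0.70, 0.48, 0.51, 0.66, 0.89, 0.70, 0.96 and 0.83. The groups then did not overlap in 7 of the 8 steps, the exception being that from 600 to 700 kb. The share of 100 kb steps without overlap over the genome was not computed, so these counts have no background to be read against. The ratio was lowest between 100 and 300 kb, where unscaled coverage was sparse, with 7.59 ± 2.96 and 10.1 ± 1.90 kb per step in shTDP43 and 17.7 ± 0.593 and 22.5 ± 5.04 kb in shNC (SD, n = 3 each). It was highest between 600 and 700 kb, the densest step, with 55.4 ± 6.96 kb in shTDP43 and 66.1 ± 0.988 kb in shNC, unscaled (SD, n = 3 each). There the window from 670 to 680 kb lay fully under peaks in all 6 libraries, so covered length could not differ in it. Upstream, no peak lay between 1 and 100 kb from the 5′ end in any of the 6 libraries. In the 100 kb downstream of the gene, 5.53, 8.92 and 10.7 kb were covered in shTDP43, against 11.0, 11.4 and 9.08 kb in shNC, and the groups overlapped.

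**Figure D3:**
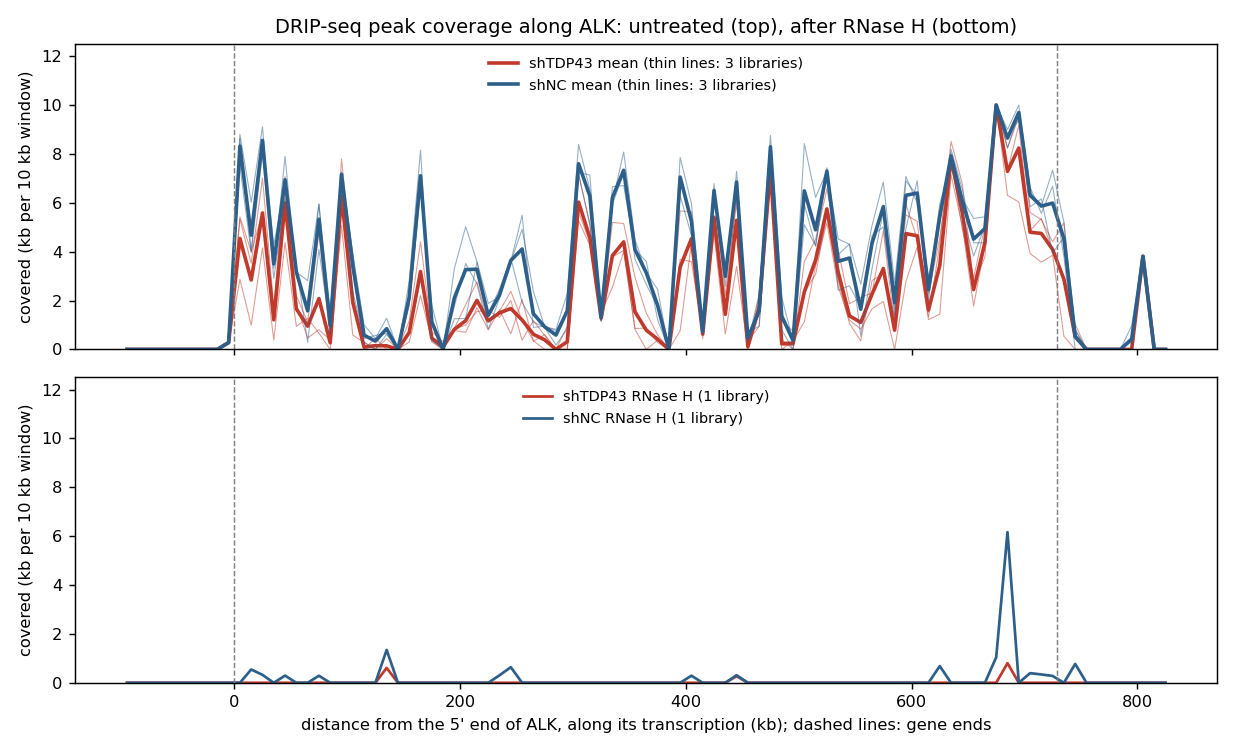
Unscaled covered length per 10 kb window along ALK and 100 kb to either side, against distance from the 5′ end in kb, for untreated libraries (top, thick lines are means of 3, thin lines single libraries) and RNase H libraries (bottom, 1 per line). The shTDP43 mean runs below the shNC mean over most of the gene, the 2 meet at 10 kb in the window from 670 to 680 kb, and the treated shNC library keeps 6.17 kb in the next window.

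Of the 10 kb windows of ALK, 67 had enough coverage to be tested, 57 of them with a negative and 10 with a positive log2 change and a median of −0.51. Over all 34305 windows tested, 47.0% had a negative change. In 33 of the 67 ALK windows every shTDP43 library lay below every shNC library before scaling, which held for 13.3% of all windows. At an unadjusted p under 0.05, 23 ALK windows were lower and 0 higher, against 7.03% and 2.91% of all windows. Neighbouring windows share peaks and are not independent. None of the 67 passed the adjustment over all windows (limma), and neither did any window of the other 8 genes, whereas 6 windows of the genome were called lower (0.0175%) and 1 higher (0.00292%). The ALK window with the smallest adjusted p (0.0616, limma) was chr2:29410001-29420000, 501.6 to 511.6 kb from the 5′ end, with a log2 change of −1.31 ± 0.17 (SE). It was covered over 1.75, 2.18 and 2.82 kb in shTDP43, against 8.15, 6.24 and 5.16 kb in shNC.

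At its start, ALK carried 1 peak whose upstream edge lay at the same base, 29921866, in all 6 untreated libraries, just beyond the promoter sequence printed above. In each of the 6 lists it was the peak with the highest fold enrichment over ALK, a value the authors' peak caller gave and which was not compared between lists. The peak reached into the gene over 2228, 3778 and 2554 bp in shTDP43, against 8938, 7342 and 8912 bp in shNC. Its width did not overlap between the lines. Of the first 10 kb of ALK, 2.87, 5.42 and 5.33 kb were covered in shTDP43, against 8.80, 7.52 and 8.63 kb in shNC. For the number of ALK peaks, the width of the start peak and the first 10 kb, the 2-sided exact permutation p was 0.1, also after adjustment over the 3 measures, and 0.1 is the smallest that 3 libraries against 3 can give. These 3 measures were chosen after their values had been seen. How often such measures separate the lines at other genes was not computed, and the part of depth in them was not tested. The share of ALK coverage that fell within 5 kb of the 5′ end stayed small in both lines, 1.42 to 2.09% in shTDP43 and 1.61 to 1.91% in shNC, so nearly all ALK coverage lay further into the gene.

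**Figure D4:**
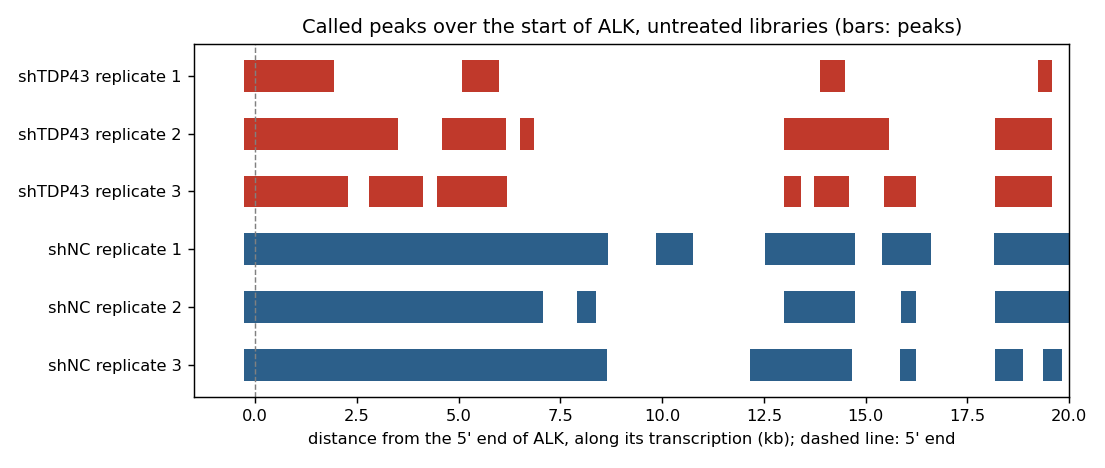
Called peaks (bars) over the first 20 kb of ALK in the 6 untreated libraries, against distance from the 5′ end in kb. All 6 start peaks share their upstream edge, and they are at most 3778 bp wide in shTDP43 and at least 7342 bp wide in shNC.

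Base by base, 405.4 kb of the ALK span lay under a peak in at least 1 untreated library, and 115.3 kb, or 28.4%, in all 6. Over all chromosomes used, 40.6% of the bases covered in any library were covered in all 6. Bases under a peak in all 3 shNC and no shTDP43 library made up 18.6 kb of ALK, or 4.59%, against 1.32% over all chromosomes. The reverse class, in all 3 shTDP43 and no shNC library, held 0.434 kb, or 0.107%, against 0.223% over all chromosomes. When touching peaks were merged, ALK had 179 regions, of which 54 (30.2%) were present in all 6 libraries, 7 (3.91%) in all 3 shNC and no shTDP43 library, and 0 in the reverse pattern, against 24.2%, 1.27% and 0.258% of regions on all chromosomes used. Of the 179, 64 had no shTDP43 peak and 14 no shNC peak, or 35.8% and 7.82%, against 29.0% and 18.3% of the 99429 merged regions on all chromosomes used. The ALK span also holds 3 annotated lncRNAs and 1 pseudogene and no other coding gene, and peaks do not tell which strand or gene made a hybrid.

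The 5 genes whose scaled log2 coverage ran most like that of ALK over the 6 untreated libraries were CCNC (Pearson r = 0.999), LRRC75A (0.998), NRG4 (0.997), NDUFC2 (0.995) and ZNF37A (0.988), and 56 of 12810 genes exceeded 0.95. The 6 points share their library scaling, and the correlations are a description. CCNC, which encodes cyclin C, was covered over 2.11, 2.47 and 3.35 kb in shTDP43, against 5.36, 4.42 and 4.95 kb in shNC. None of the 5 passed the gene test, and LRRC75A came to a log2 change of −0.15.

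Of the 9 genes, ALK was the 1 called lower and 0 were called higher. The log2 change was negative for 5 of the 9, with a median of −0.03, against 5579 negative of 12811 and a median of 0.05 for all genes tested. At an unadjusted p under 0.05, too, 1 was lower and 0 were higher, against 7.68% and 3.82% of all genes tested. LMO1, a LIM-only transcriptional cofactor at chr11:8224309-8268787 on the minus strand, was covered over 24.0, 32.0 and 29.4 kb in shTDP43 and 32.7, 30.3 and 31.1 kb in shNC. The groups overlapped, with a log2 change of 0.04 ± 0.08 (SE, limma, adjusted p = 0.792). A single broad peak lay over its start in every untreated library, 10249, 10924 and 11457 bp wide in shTDP43 and 12272, 11411 and 10924 bp wide in shNC. The promoter window of LMO1 was only 50.7% G and C, below the median of the table.

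LIN28B, the RNA-binding protein that blocks maturation of let-7 microRNAs, lies at chr6:104937026-105083332 on the plus strand. It was covered over 3.31, 5.27 and 4.07 kb in shTDP43 and 4.59, 3.40 and 4.12 kb in shNC, and the groups overlapped (log2 change 0.24 ± 0.17, SE, limma, adjusted p = 0.634). Between 56.7 and 100% of that length in shTDP43 and between 62.8 and 74.0% in shNC lay in the 5 kb at its 5′ end. One peak there began at base 104939766 in all 6 libraries. Most of the called coverage of LIN28B thus lay at its start.

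Both ubiquitin ligase genes had short coverage at the start. BARD1, the RING partner of BRCA1 at chr2:214725646-214809683 on the minus strand, had 0, 2.07 and 3.62 kb in shTDP43, against 2.26, 2.92 and 2.28 kb in shNC. The 0 belongs to the shallowest library, and the log2 change was −1.44 ± 1.18 (SE, limma, adjusted p = 0.634), with the widest SE of the 9 genes. No base of BARD1 was covered in all 6 libraries. HACE1, a ligase acting on the GTPase RAC1, lies at chr6:104728094-104859919 on the minus strand and had 0.898, 2.90 and 3.06 kb in shTDP43, against 3.40, 2.99 and 2.13 kb in shNC (log2 change −0.27 ± 0.35, SE, limma, adjusted p = 0.705).

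At the HACE1 start a peak edge fell inside a restriction site. The nucleic acids had been cut with 5 enzymes, BsrGI, EcoRI, HindIII, SspI and XbaI, and in the sequence below capitals mark the recognition sites of BsrGI (TGTACA, at 104860102 to 104860107) and HindIII (AAGCTT, at 104860049 to 104860054), both palindromes and searched as such.

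HACE1 start, chr6:104859870-104860169, minus strand: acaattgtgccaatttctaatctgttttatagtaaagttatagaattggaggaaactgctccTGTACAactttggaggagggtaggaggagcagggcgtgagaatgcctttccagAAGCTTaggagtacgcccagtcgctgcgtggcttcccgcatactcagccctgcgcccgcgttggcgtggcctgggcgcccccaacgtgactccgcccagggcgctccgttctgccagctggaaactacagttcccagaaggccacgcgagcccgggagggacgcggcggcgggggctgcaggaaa

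The start peak of HACE1 ended at base 104860106 in all 6 untreated libraries, inside the BsrGI site, and it ran across the HindIII site without a break. BsrGI sites occur in 3.52% and HindIII sites in 5.84% of all promoter windows, and a site of any of the 5 in 22.6%. The width of this peak was 460, 1306 and 1306 bp in shTDP43 and 1736, 1306 and 1306 bp in shNC, so replicates of both lines shared whole peaks to the base. In the same way the start peak of KIF1B spanned chr1:10209517-10213014, 3498 bp, in all 6 untreated libraries.

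KIF1B, a kinesin motor that carries mitochondria and synaptic vesicle precursors, lies at chr1:10210570-10381603 on the plus strand. It was covered over 12.8, 20.2 and 18.2 kb in shTDP43 and 21.4, 16.5 and 21.2 kb in shNC, with overlap (log2 change −0.03 ± 0.12, SE, limma, adjusted p = 0.913). Of its 28 merged regions, 5 (17.9%) were present in all 6 libraries, 9 (32.1%) had no shTDP43 peak and 7 (25.0%) no shNC peak. Over all chromosomes used, these shares were 24.2%, 29.0% and 18.3%. NBAS, whose product acts in retrograde transport from the Golgi to the endoplasmic reticulum and in nonsense-mediated decay, lies at chr2:14778909-15561334 on the minus strand. It was covered over 1.19, 2.16 and 3.66 kb in shTDP43 and 2.75, 3.50 and 1.38 kb in shNC, the groups overlapping throughout (log2 change 0.03 ± 0.39, SE, limma, adjusted p = 0.973). None of that length lay within 5 kb of its 5′ end.

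DUSP12, a dual-specificity phosphatase gene at chr1:161749786-161757238, was covered over 1.39, 1.93 and 2.23 kb in shTDP43 and over 1.93 kb in each of the 3 shNC libraries (log2 change 0.10 ± 0.23, SE, limma, adjusted p = 0.827). Its peak runs from 161749565 to 161751489 in all 3 shNC libraries. CASC15, a long non-coding RNA gene at chr6:21666413-22195820 on the plus strand, was covered over 12.1, 22.1 and 24.9 kb in shTDP43 and 24.6, 24.7 and 17.8 kb in shNC. The groups overlapped (log2 change −0.04 ± 0.16, SE, limma, adjusted p = 0.918). Of its 62 merged regions, 5 (8.06%) were present in all 6 libraries, 16 (25.8%) had no shTDP43 peak and 20 (32.3%) no shNC peak. The shares over all chromosomes used were 24.2%, 29.0% and 18.3%. The CASC15 span also contains NBAT1, a lncRNA gene of the same risk locus, and 1 annotated coding gene, and their peaks are counted with it.

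RNase H removed most of the coverage of 8 of the 9 genes. The treated and untreated libraries were compared over both lines together, unscaled, with the line as a covariate, and 8 of the 9 genes were called lower and 0 higher (limma). Genes called lower were 11995 of 12709 tested, or 94.4%, so that count is the usual one for a covered gene, and 85, or 0.669%, were called higher. ALK kept 1.68 kb in the treated shTDP43 library and 13.1 kb in the treated shNC library. That is 0.842% of the untreated shTDP43 mean and 4.37% of the untreated shNC mean (log2 change −5.64 ± 0.50, SE, limma, adjusted p = 5.23e-05). The treated shTDP43 library had a background pileup of 0.991, and untreated shTDP43 replicate 1 had 157.3 kb of ALK at 1.05. For shNC no untreated library was as shallow as the treated one, which had a pileup of 0.936 against 1.62 to 2.01. The part of depth in the loss after RNase H was not tested. LMO1 kept 0.357 kb in treated shTDP43 and 0.317 kb in treated shNC (log2 change −6.10 ± 0.14, SE, limma, adjusted p = 5.83e-08), and LIN28B, BARD1 and HACE1 had no treated peak. The call of BARD1 (log2 change −3.95 ± 1.38, SE, limma, adjusted p = 0.0310) was lost without shTDP43 replicate 2 (limma, adjusted p = 0.0591), without shNC replicate 1, 2 or 3 (0.0572, 0.0594 and 0.0571) and without the treated shTDP43 (0.0888) or shNC library (0.209). KIF1B kept 0.794 kb in treated shTDP43 and 0.521 kb in treated shNC, and CASC15 kept 1.06 kb in treated shTDP43 and 3.30 kb in treated shNC. DUSP12 kept 0.275 kb in treated shTDP43 and 0 kb in treated shNC. With 1 treated library per line, differences between the lines after RNase H were not tested.

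Within ALK, the treated lists held 5 peaks in shTDP43 and 20 in shNC, and 2 and 19 of these lay over an untreated peak of the same line. Over all genes and intergenic sequence, 49.1% of the treated peaks in shTDP43 and 52.6% in shNC did. Those shares are no like measure for ALK, since untreated peaks covered on average 27.4% of its span in shTDP43 and 41.1% in shNC. The start window of ALK was free of peaks after RNase H in both lines. The longest treated peak of ALK in shNC, chr2:29233367-29236453, lay in a stretch with a peak in all 8 libraries, and the treated shTDP43 library had 336 and 467 bp peaks inside it.

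NBAS was the 1 gene of the 9 that was not called lower after RNase H. Its covered length was 1.45 kb in treated and 2.34 ± 1.24 kb (SD, n = 3) in untreated shTDP43 libraries, and 3.52 kb in treated and 2.54 ± 1.08 kb (SD, n = 3) in untreated shNC libraries. The log2 change was 0.02 ± 0.53 (SE, limma, adjusted p = 0.977), against a median of −5.07 for all genes tested. The treated lists held 3 NBAS peaks in shTDP43 and 7 in shNC, of which 1 and 2 lay over an untreated peak of the same line. The strongest treated peak in both lines was chr2:14981819-14982581, with the same 763 bp extent, and 6 of the 8 libraries had a peak there. That site had a peak in 4 untreated libraries, shTDP43 replicates 2 and 3 and shNC replicates 1 and 2. Another untreated peak ended at base 15220582 in all 3 shTDP43 libraries and in shNC replicates 1 and 2 and had no counterpart after RNase H. The treated shTDP43 library exceeded every untreated library of its line for 95 of the 12811 genes and the treated shNC library for 96. In shNC NBAS was one of these, by a narrow margin of 3.522 kb in the treated library against 3.5 kb in untreated replicate 2.

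Around ALK, 7 lists of pathway partners were examined, and 1 gene in all of them was called. The ligand list had 6 genes, of which 2 were covered enough to be tested, 0 lower and 0 higher. LTK, the closest receptor relative of ALK, had 1.70, 1.85 and 1.85 kb in shTDP43, against 2.85, 2.83 and 3.55 kb in shNC, without overlap, and was not called (log2 change −0.55 ± 0.23, SE, limma, adjusted p = 0.413). The growth factor MDK lay under 5.05 kb of peak in all 6 untreated libraries. The ligand genes ALKAL1 and ALKAL2, PTN and its receptor PTPRZ1 had no untreated peak.

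Of 33 genes of ALK signalling, 32 were tested, 1 was lower and 0 were higher, against 0.749% and 0.172% of all genes tested. The change was negative for 14 of the 32, with a median log2 change of 0.04. The called gene was FOXO3, a transcription factor that AKT signalling keeps out of the nucleus. It was covered over 13.2, 21.9 and 19.6 kb in shTDP43, against 34.2, 28.8 and 31.0 kb in shNC. The FOXO3 groups did not overlap, and the log2 change was −0.61 ± 0.09 (SE, limma, adjusted p = 0.0263). That call was kept under 12 of 21 alternative settings and was lost without shNC replicate 1, 2 or 3 (limma, adjusted p = 0.173, 0.104 and 0.168) or shTDP43 replicate 3 (limma, adjusted p = 0.0646). SPRY4, a feedback inhibitor of receptor tyrosine kinase signalling, came next with 4.53, 6.25 and 5.92 kb in shTDP43, against 9.23, 8.58 and 8.56 kb in shNC, and was not called (log2 change −0.47 ± 0.11, SE, limma, adjusted p = 0.123). At an unadjusted p under 0.05, 6 of the 32 were lower and 0 higher, against 7.68% and 3.82% of all genes tested.

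The remaining 5 lists had 0 genes called in either direction (limma), and at an unadjusted p under 0.05 they had 5 lower and 3 higher of 64 tested, against 7.68% and 3.82% of all genes tested. Among 23 other genes linked to neuroblastoma, 22 were tested with a median of 0.01, and the smallest p-values belonged to CAMTA1 (log2 change −0.33 ± 0.08, SE, limma, adjusted p = 0.112) and SLC16A1 (0.47 ± 0.12, SE, limma, adjusted p = 0.155). CAMTA1 was covered over 45.3, 60.4 and 55.9 kb in shTDP43, against 84.0, 80.2 and 68.3 kb in shNC, without overlap. For SLC16A1 the groups overlapped, with 5.59, 9.11 and 9.51 kb in shTDP43 and 6.54, 6.52 and 6.28 kb in shNC. Of 15 partners and relatives of LMO1, 10 were tested with a median of 0.19, and TCF4, a basic helix-loop-helix factor, had the smallest p (log2 change −0.52 ± 0.11, SE, limma, adjusted p = 0.0919). TCF4 was covered over 24.1, 42.7 and 42.7 kb in shTDP43, against 56.8, 55.6 and 61.6 kb in shNC, and the groups did not overlap. ISL1, a LIM homeodomain factor, followed at 0.27 ± 0.14 (SE, limma, adjusted p = 0.518). In this list HAND2, GATA2 and TBX2 had the same unscaled length in all 6 untreated libraries, 5.845, 15.78 and 11.624 kb. Their log2 changes of 0.193, 0.195 and 0.194 came from the scaling alone, so the list median of 0.19 is not read as a gain. LTK, FOXO3, CAMTA1 and TCF4 were named by their p-values in these same libraries. Without scaling, 14.0% of all genes tested also had every shTDP43 library below every shNC library.

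Of 14 genes of the LIN28B and let-7 axis, 10 were tested with a median of 0.03. RAN and AURKA were named by the smallest p-values, with log2 changes of 0.33 and −0.42 that did not pass (limma, adjusted p = 0.501 and 0.612). LIN28A, HMGA2, IGF2BP1 and IGF2BP2 had no peak. Of 12 genes of the BARD1 complex, 9 were tested with a median of 0.05, and BRCA2, which acts in homologous recombination, had a log2 change of −0.56 (limma, adjusted p = 0.548). Of 14 partners of HACE1, KIF1B and NBAS, 13 were tested with a median of −0.04. KIF1A, the neuronal sister motor of KIF1B, was covered over 87.6, 93.8 and 92.9 kb in shTDP43 and 92.5, 92.4 and 92.2 kb in shNC (log2 change 0.18, limma, adjusted p = 0.608), and STX18 had a log2 change of 0.13 (limma, adjusted p = 0.634).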

How the data were processed

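The data are peak lists of 8 DRIP-seq libraries, called per library; the input library was not analysed here. Bowtie2 2.4.4, MACS2 2.2.6, SAMtools and the hg38 build are listed in the submitters' processing notes, and the sources used here do not name a control for peak calling. As deposited by the authors, a peak has a score, a fold ratio over local background, and −log10 p and −log10 q values, the lowest −log10 q being 1.30. The lists hold no read counts, so relative depth was solved from fold and p at peak summits (lowest background pileup).

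Covered length per gene span plus 1000 bp on each side was scaled to the median library total, 100 bp was added, and limma 3.58.1 was run on the log2 values with a trended prior (R 4.3.3). All coding genes on chromosomes 1 to 22 and X plus CASC15 with a mean of at least 500 bp were fitted, as were 10 kb windows, and an adjusted p (Benjamini-Hochberg) under 0.05 made a call. Log2 changes are on the scaled scale plus pseudocount, which understates changes of short lengths, and a gene wholly under peaks cannot gain length. A gene of equal covered length in all libraries still gets a log2 change from the scaling. RNase H was tested over all 8 libraries, unscaled, with the line as covariate. The scripts were tested on simulated data. Alternatives are given at the end.

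The genes, lists and tests were chosen with earlier results of these data known. Named genes are all 9 members, every called gene of a list and otherwise its 2 smallest p-values, and the 5 genes most correlated with ALK. A gene that this rule names is not reported here. Promoters are from the RefSeq tables of GRCh38.p14, which shares coordinates with hg38. Deviations of log2 coverage from the mean of the line gave r = −0.171, 0.062 and −0.172 for same-numbered pairs of libraries. The other pairs gave −0.176 to 0.229. The libraries were not paired in the main test, and these values cannot show whether they were prepared as pairs.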

Additional observations from a re-analysis of the deposited data

How the results depend on the processing

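Genes called lower (96) and higher (22) in shTDP43 against shNC came to 30 and 3 with only peaks of −log10 q of at least 5, 30 and 2 at 10, 669 and 1070 without peaks also called after RNase H, 19 and 1 without scaling, 191 and 40 with a pseudocount of 1000 bp, and 61 and 14 without trend. With equal numbers of peaks 41 were higher. Leaving out 1 library gave 12 to 166 lower and 6 to 57 higher, the fewest without shNC replicate 1 and the most without shTDP43 replicate 1. With the replicate block 65 were lower and 9 higher, ALK had an adjusted p of 0.0197 (limma), and FOXO3 lost its call (limma, adjusted p = 0.0988). No other named gene changed its call under the block.

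ALK, the 1 member called lower, was not called (0 members lower) at −log10 q of at least 5 (limma, adjusted p = 0.114) or 10 (0.511), without scaling (0.571), with a pseudocount of 10 bp (0.0687), without the filter (0.0891) or without trend (0.269), and leaving out 1 library gave 0 to 1. Without peaks also called after RNase H, ALK lost its call (limma, adjusted p = 0.0683) and DUSP12 was called with a log2 change of −3.74 (limma, adjusted p = 0.0111), since only the treated shTDP43 list had a peak over its start peak. That setting also called 8 windows of the 9 genes lower and 6 higher, and a pseudocount of 1000 bp called 1 lower. Under both settings more genes were called among all genes tested as well. The shares of all windows called under these settings are not given here, so these window counts are no result about the 9 genes. No scaling moved the median log2 change of all genes to −0.15, against 0.05.

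For RNase H, genes called higher (85) came to 40 with a pseudocount of 10 bp, 361 without the filter, 6 at a mean of at least 2000 bp, 29 at −log10 q of at least 10 and 1500 when scaled to the library total, and to 20 to 111 without 1 library. Members called lower (8) came to 5 at a mean of at least 2000 bp, which leaves short genes untested, and to 5 when scaled, where 1 member, NBAS, was called higher and CASC15 turned to 0.55. The other causes were not tested. BARD1 had no peak in the shallowest library, and limits of depth were not tested by gene.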
